A study of Mus musculus with 70 samples.

Results

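The comparison described here sets the lungs of mice given corn oil by gavage against the lungs of mice given distilled water by gavage, with no test chemical in either group. Its members are 12 arrays of the 70 in the series: 8 corn oil controls and 4 water controls, chosen by the vehicle code in their titles and by the animal identifier, whose first digit is 2 in both groups (set 2). All 12 animals were female B6C3F1 mice, a hybrid strain used in long-term carcinogenicity testing, labelled as adults and 18 weeks old, and each was gavaged with 5 ml/kg of vehicle once a day on 5 days a week for 13 weeks at a chemical dose of 0. RNA of the right lung lobe was measured on Affymetrix arrays of the whole mouse genome, 1 array per animal, and the rest of the series holds animals exposed to 13 chemicals in feed or by gavage and their feed or corn oil controls. All 70 arrays enter the fit that gives the spread behind each call. Besides that, group levels are given for 4 feed controls of set 2, which received rodent chow with no gavage on 7 days a week, 12 arrays of mice gavaged with benzene (100 mg/kg), coumarin (200 mg/kg) or 1,2-dibromoethane (62 mg/kg) in corn oil, and 8 arrays of mice gavaged with N-methylolacrylamide (50 mg/kg) or 2-chloromethylpyridine hydrochloride (250 mg/kg) in water.

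Corn oil is a triglyceride oil rich in linoleic acid that is used to dissolve chemicals of low water solubility, so each gavage with it also delivers dietary fat. Fatty acids taken up by cells through carriers such as CD36 can be stored in lipid droplets, burned in mitochondria and peroxisomes, or sensed by the PPAR receptors, which turn on genes of fatty acid oxidation. Sterols and polyunsaturated fatty acids hold back the SREBP factors, which drive the genes of fatty acid and cholesterol synthesis. In the lung, alveolar type II cells make the lipids of surfactant, alveolar macrophages clear them, and the capillary endothelium carries lipoprotein lipase. Whether a gavage vehicle by itself shifts lung gene expression matters for a design in which different chemicals were given in different vehicles.

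The 12 arrays did not fall cleanly into 2 groups. The first principal component of the 14593 genes tested, which held 52.0% of the variance over these 12 arrays, had scores between -44.6 and -2.55 in the 4 water controls and between -31.6 and 49.4 in the 8 corn oil controls. The mean score was 12.4 ± 24.4 (SD, n = 8) with corn oil and -24.7 ± 17.5 (SD, n = 4) with water. The exact two-sided permutation test gave p = 0.0242, and 0.0606 after Benjamini-Hochberg adjustment over the 5 array and RNA readings tested. Corn oil control 2-132 sat among the water controls at -31.6, and corn oil controls 2-134 and 2-59 lay near 0 at 0.487 and 1.15. The animal numbers of the corn oil controls form 3 runs, whose meaning the labels do not give: 2-59 and 2-60, which follow the 1,2-dibromoethane animals; 2-93 to 2-99, which follow the benzene animals; and 2-132 and 2-134, which follow the water controls numbered 2-121 to 2-129.

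The RNA readings differed in how far they separated the groups, and none was tested over the runs. Control probe sets for Actb and Gapdh lie at both ends of their transcripts, and the excess of the 3' over the 5' signal is larger where RNA is degraded or incompletely copied. This 3' minus 5' difference was 0.0857, 0.132, 0.0832 and 0.164 on the log2 scale in the water controls. In the corn oil controls it ran from 0.159 to 0.339, with a mean of 0.217 ± 0.060 (SD, n = 8) against 0.116 ± 0.039 (SD, n = 4) with water, and the exact permutation test gave p = 0.00606 (0.0303 adjusted over 5 readings). The OD260 of the RNA solution was 2.68 and 2.74 in corn oil controls 2-132 and 2-134, 3.16 and 4.89 in 2-59 and 2-60, and 5.92 to 8.14 in 2-93 to 2-99, beside 2.62 to 4.02 in the water controls. Its means of 5.19 and 3.37 were not separated by the exact permutation test (p = 0.145). The RNA integrity number averaged 8.45 with corn oil (n = 8) and 8.07 with water (n = 3, since 1 water control has none in the labels), with p = 0.0727 by the exact permutation test. A higher number stands for more intact RNA, so its means lay the other way from the 3' minus 5' difference. Corn oil control 2-99 had both the highest 3' minus 5' difference (0.339) and the highest integrity number (8.8). The part of these readings in the gene differences below was not tested beyond fits with the 3' minus 5' difference, OD260 or integrity number as a covariate.

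**Figure D1:**
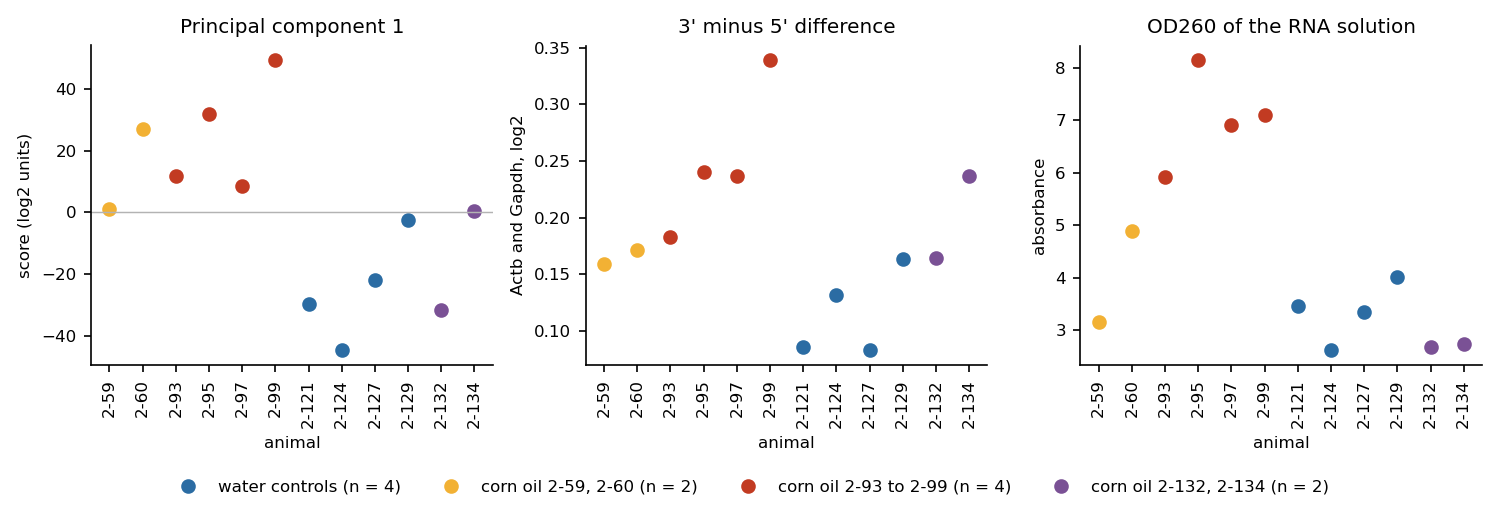
The score on the first principal component, the 3' minus 5' difference (log2) and the OD260 of each of the 12 controls, in order of animal number, 1 point per animal and coloured by vehicle and run of numbers. The 4 corn oil controls 2-93 to 2-99 have the highest OD260 readings (5.92 to 8.14), and corn oil control 2-132 lies among the water controls on the first component.

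Across all genes the corn oil controls differed from the water controls at 3340 of 14593 genes tested (22.9%), at an adjusted p under 0.05 from a limma model fitted to all 70 arrays. Of these, 1789 (12.3% of those tested) were higher with corn oil and 1551 (10.6%) were lower. The 2 directions differed in size: the median difference was 0.62 on the log2 scale among the higher genes and -0.32 among the lower ones, and all 224 called genes with a difference over 1 log2 unit were higher with corn oil. The median over all genes tested was -0.09, and 65.3% of genes had a difference below 0. The 8 corn oil and 4 water values did not overlap at 310 genes (2.12%), of which 284 were also called, 113 higher and 171 lower with corn oil.

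These calls rest on a spread shared by all 18 groups of the series. With the spread taken from the 12 arrays alone, limma called 0 genes, with 3522 at an unadjusted p under 0.05 and a smallest adjusted p of 0.107. The median within-group standard deviation of a gene was 0.236 in the corn oil controls, the highest of the 18 groups, and 0.180 in the water controls, against 0.0997 to 0.194 in the other 16 groups. Set against the same 4 water controls, the 4 corn oil controls 2-93 to 2-99 gave 5849 called genes, 2-59 and 2-60 gave 2229, and 2-132 and 2-134 gave 1 gene, which was lower with corn oil (1297 genes at an unadjusted p under 0.05). Leaving out water control 2-124 left 1032 called genes, without water control 2-121 there were 2048, without corn oil control 2-99 there were 1975, and without corn oil control 2-132 there were 5087. The limma p-values given for single genes use the spread shared by all 18 groups and not that of the 12 animals compared. Vehicle, animal number and RNA readings are only partly separable among 12 animals.

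The corn oil controls also differed among themselves. A moderated F test over the 3 runs of animal numbers called 2486 genes (17.0% of those tested) at an adjusted p under 0.05 in limma. Between runs, 2-93 to 2-99 against 2-132 and 2-134 gave 3426 called genes (1812 higher and 1614 lower in 2-93 to 2-99), and 2-59 and 2-60 against 2-93 to 2-99 gave 148. The contrast of 2-59 and 2-60 with 2-132 and 2-134 gave 0 called genes in limma, with 2207 at an unadjusted p under 0.05. At 1332 of the 3340 genes called for vehicle (39.9%), the means of the 3 corn oil runs lay farther apart than the corn oil and water means did.

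**Figure D2:**
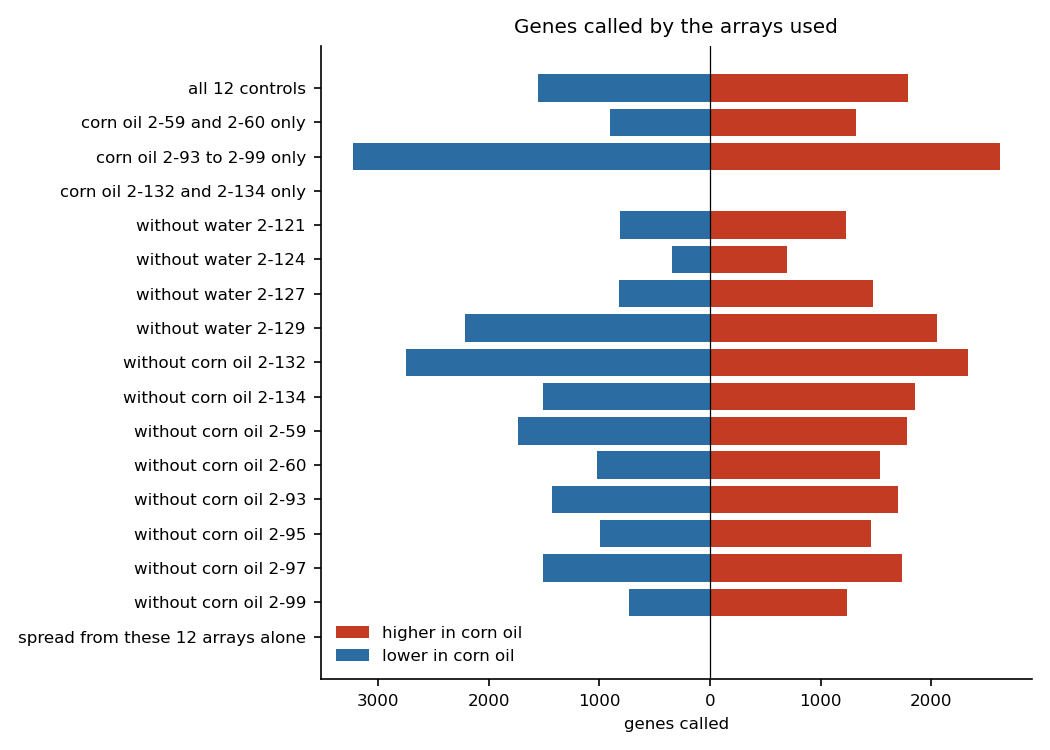
Number of genes called higher (right) and lower (left) in corn oil than in water controls at an adjusted p under 0.05, for all 12 controls, for each run of corn oil controls, with each animal left out, and with the spread taken from these 12 arrays alone. The bars run from 5849 genes for corn oil controls 2-93 to 2-99 to 1 gene for 2-132 and 2-134 and 0 genes for the 12 arrays alone.

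The largest rises with corn oil among genes whose groups did not overlap were found for Acbd5, Yme1l1, Slco4c1, Mndal, Fbxo11, Dock11, Ythdf3, Vamp7, U2surp, Ell2, Zfp326, Erbin, Nrp1, Tbc1d8b and Yes1. Acbd5, a peroxisomal membrane protein that tethers peroxisomes to the endoplasmic reticulum and binds long-chain acyl-CoA, had levels of 6.64, 5.70, 6.42 and 7.22 in the water controls. In the corn oil controls its level ran from 7.58 to 9.30. The difference was 1.68 ± 0.28 (SE) on the log2 scale. The corn oil controls 2-132 and 2-134 were the lowest of their group for this gene, and the feed controls averaged 8.63. The 1 other probe set of Acbd5 differed by 0.02, so the rise was seen on the probe set with the higher signal and not on both.

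Yme1l1, a protease of the inner mitochondrial membrane, was at 5.03, 4.41, 5.18 and 5.03 in the water controls and at 5.66 to 7.62 in the corn oil controls. Nrp1, the neuropilin co-receptor for VEGF and semaphorins, was at 9.48, 8.65, 9.24 and 9.68 in the water controls. With corn oil it lay between 9.77 and 11.07, a difference of 1.17 ± 0.17 (SE), and its 3 other probe sets differed in the same direction by 0.22 to 1.22. Erbin, a scaffold protein of the basolateral membrane that binds ERBB2, differed by 1.20 ± 0.19 (SE), also with all 3 other probe sets in the same direction. For both genes no water value reached the lowest corn oil value. Fbxo11, a substrate receptor of a ubiquitin ligase, and Ell2, a factor of transcription elongation, differed by 1.47 and 1.20. The other probe sets did not always follow: across the 1273 higher genes with further probe sets, 81.3% of 2581 such probe sets had a difference above 0.

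The falls were smaller. They comprised Cacna1s, Slc43a1, M1ap, Map3k21, Cep164, Tekt4, Nupr1l, Wdr31, Dnaaf1, D630024D03Rik, Kif6, Ccdc189, Igf2r, Dmkn and Wdr54. Cacna1s, the pore subunit of the calcium channel of skeletal muscle, was at 5.91, 6.09, 5.90 and 5.54 in the water controls and between 4.88 and 5.40 with corn oil, a difference of -0.71 ± 0.13 (SE). Cep164, a protein of the centriole appendages needed to build cilia, was at 8.13, 8.05, 8.00 and 7.94 with water. With corn oil it ran from 7.14 to 7.83, a difference of -0.56 ± 0.09 (SE), and its other probe set differed by -0.37. Igf2r, the receptor that clears IGF2 and carries lysosomal enzymes, was at 9.03, 8.98, 9.14 and 8.96 with water and at 8.19 to 8.87 with corn oil. For Cacna1s, Cep164 and Igf2r the feed controls averaged 5.48, 7.52 and 8.85.

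**Figure D3:**
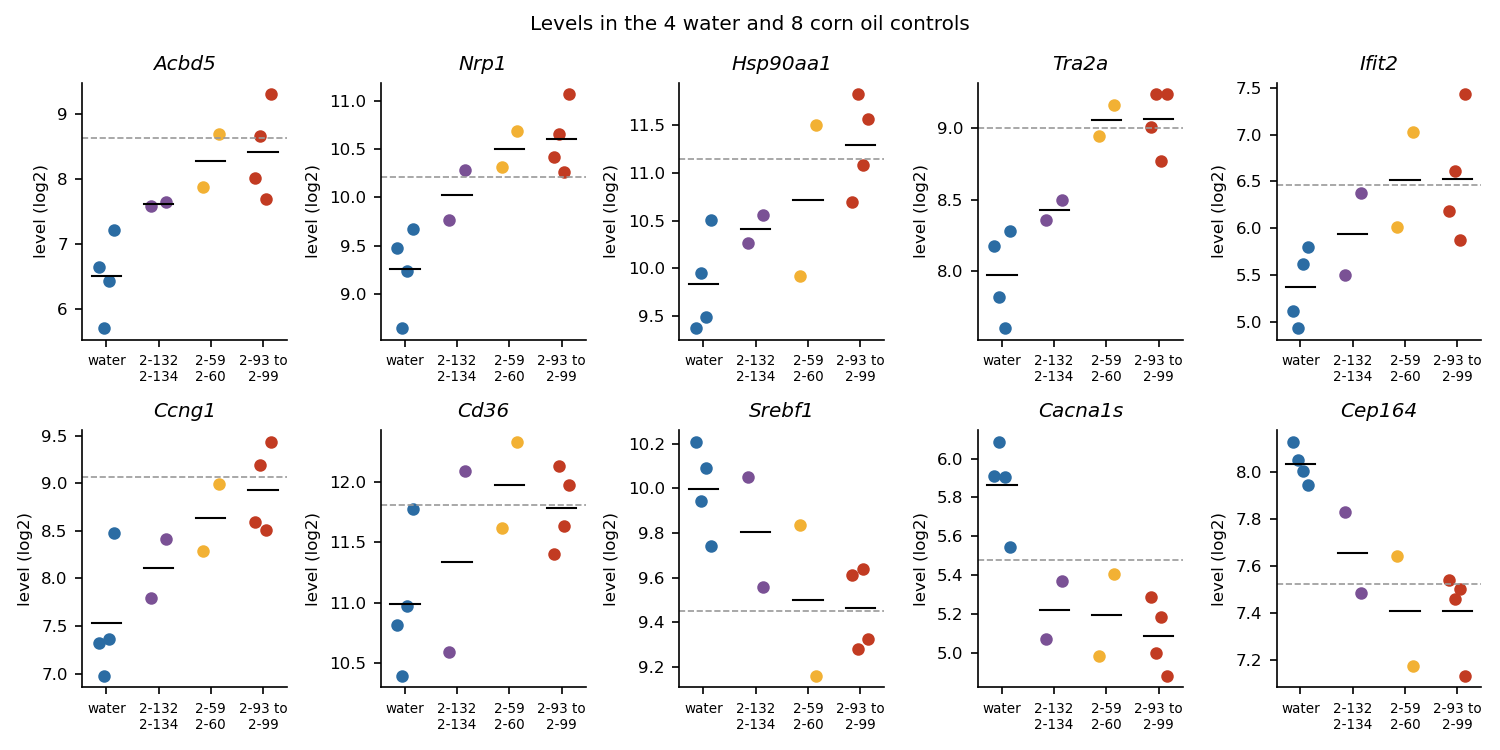
Level (log2) of 10 genes in the 4 water controls and in the 3 runs of corn oil controls, 1 point per animal, with a bar at the mean of each set of points and a dashed line at the mean of the 4 feed controls. In Acbd5, Nrp1, Tra2a, Cacna1s and Cep164 the water and corn oil values do not overlap, and in the other genes shown they do.

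Averaged over the 1789 genes called higher with corn oil, the level was 7.39 ± 0.29 (SD, n = 4) in the water controls and 8.05 ± 0.38 (SD, n = 8) in the corn oil controls. Mice gavaged with water as the vehicle averaged 8.07 ± 0.22 (SD, n = 4) with N-methylolacrylamide and 7.75 ± 0.23 (SD, n = 4) with 2-chloromethylpyridine hydrochloride, and the feed controls 8.22 ± 0.22 (SD, n = 4). Over the 1551 genes called lower, the averages were 7.86 in the water controls, 7.53 in the corn oil controls, 7.60 with N-methylolacrylamide, 7.71 with 2-chloromethylpyridine hydrochloride and 7.58 in the feed controls. The genes were chosen by the values of the 12 controls, and the choice can exaggerate how far the 4 water controls lie from any other group. These levels are therefore a description, and nothing is read from which controls the other groups lie nearer to.

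Genes of fatty acid oxidation and other PPAR targets were mostly not called. Of 20 tested, 0 were higher with corn oil, beside 12.3% of all genes, and 1 was lower (5.0%, beside 10.6%). The median difference was -0.08 against -0.09 over all genes. The 1 lower gene was Acadvl, the mitochondrial dehydrogenase of very long chain acyl-CoA, at -0.25 ± 0.07 (SE; limma adjusted p = 0.0149). The list held 0 lower calls without 2-127, 2 without 2-121 and 3 without 2-132. Cpt1a, which admits fatty acids to mitochondria, differed by -0.04 with a 95% interval of -0.25 to 0.17. Pdk4, a kinase that holds back glucose oxidation when fat is plentiful, differed by -0.05, with an interval of -0.75 to 0.64, and Angptl4, a secreted inhibitor of lipoprotein lipase, by -0.16, with an interval of -0.58 to 0.26. For Pdk4 and Angptl4 these intervals leave room for changes of more than 0.25 in both directions.

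Fatty acid and triglyceride synthesis had 7 of 22 tested genes called, all lower with corn oil, beside the 10.6% of all genes called lower. They were Srebf1, Fasn, Acacb, Elovl1, Acss2, Dgat2 and Acaca, and the list's median difference was -0.18. Srebf1, which encodes the transcription factor SREBP1 that drives this pathway, was at 10.21, 9.94, 10.09 and 9.74 in the water controls. Its corn oil values ran from 9.16 over a median of 9.58 to 10.05, a difference of -0.44 ± 0.11 (SE; limma adjusted p = 0.00263). The groups overlapped because corn oil controls 2-132 and 2-59 lay above the lowest water control. Fasn, the fatty acid synthase, was at 11.15, 11.19, 11.23 and 10.75 with water and from 10.50 to 11.04 with corn oil, and the feed controls averaged 10.43. Adipocyte markers had a median difference of -0.46, with 7 of 8 below 0 and 0 called. Their mean level ran from 6.62 to 7.90 in the water controls and from 6.15 to 7.69 in the corn oil controls, and the part of fat tissue in the synthesis genes was not tested. Acss2, which makes acetyl-CoA from acetate, was the 1 gene of the list whose groups did not overlap (-0.35 ± 0.12, SE). Scd1, the stearoyl-CoA desaturase, differed by 0.01 with an interval of -0.23 to 0.25. The count of 7 fell to 1 without water control 2-127, to 2 without 2-124, to 3 without 2-121, 2-95 or 2-99 and to 4 without 2-60, and among the treated groups 0 of the 22 genes were called (median 0.01).

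Among 16 tested genes of cholesterol synthesis and SREBP2 targets, 2 were called higher (12.5%, beside 12.3% of all genes) and 4 lower (25.0%, beside 10.6%). Srebf2, which encodes SREBP2, and the synthesis enzymes Fdft1, Fdps and Mvd were lower, by -0.32, -0.49, -0.49 and -0.36. Idi1 and Hmgcs1, enzymes of the same pathway, were higher, by 0.72 and 0.51. With the spread of the 12 arrays alone, or with corn oil controls 2-132 and 2-134 only, none of the 45 gene lists held a called gene. Not all of these lists are described here, and some of those left out held calls in the main fit, such as phase I enzymes of lung (2 higher and 1 lower of 21). The 4 lower calls fell to 1 without water control 2-124 and to 2 without 2-121. The 2 higher calls fell to 0 without 2-124 and to 1 without any 1 of 2-121, 2-127, 2-59, 2-60, 2-93 or 2-99.

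Of 20 tested genes of fatty acid uptake, lipid droplets and lipases, 3 were higher (15.0%, beside 12.3% of all genes) and 1 was lower (5.0%, beside 10.6%), so the counts do not set these genes apart. Abca1, the exporter of cellular cholesterol to lipoproteins, was at 7.83, 7.13, 8.01 and 8.89 in the water controls and from 8.20 over a median of 9.09 to 9.71 with corn oil, a difference of 1.08 ± 0.23 (SE; limma adjusted p = 0.00104). Cd36, the fatty acid translocase, was at 10.82, 10.39, 10.98 and 11.78 with water and from 10.59 to 12.34 with corn oil (0.73 ± 0.22, SE; limma adjusted p = 0.0130). Lpl, lipoprotein lipase, differed by 0.77 ± 0.24 (SE). In all 3 genes water control 2-129 lay within the corn oil range, and the feed controls averaged 9.02 for Abca1, 11.81 for Cd36 and 10.37 for Lpl. Plin5, a coat protein of lipid droplets in oxidative tissue, was lower, by -0.78 ± 0.21 (SE), and the feed controls averaged 7.02. The list held 1 higher call without water control 2-121 or 2-124, and 0 of the 20 genes were called higher among the treated groups.

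The spliceosome and nuclear RNA genes had the most rises of the 45 lists. Of 21 tested, 11 were higher with corn oil and 0 lower, beside 12.3% of all genes called higher, and the median difference was 0.47. They were Clk1 and Clk4, kinases of splicing factors; Luc7l3, Prpf4b, Srsf11, Srsf1, Rbm25, Tra2a and Ddx5, which take part in splicing; Ogt, which adds O-GlcNAc to nuclear proteins; and Malat1, a nuclear long noncoding RNA. Tra2a was at 8.18, 7.82, 7.60 and 8.28 in the water controls and from 8.36 over a median of 8.98 to 9.24 in the corn oil controls, a difference of 0.93 ± 0.17 (SE; limma adjusted p = 0.000284). Clk1 was at 8.20, 7.82, 8.30 and 9.20 with water and from 8.31 to 10.54 with corn oil. Tra2a was the 1 member whose groups did not overlap. Of the other members, Srsf6 (0.05), Son (-0.09) and Srrm2 (-0.18) were not called, so the rise did not extend to the whole list. The count of 11 fell to 5 without water control 2-124 and rose to 15 with corn oil controls 2-93 to 2-99 only. Among the treated groups the list's median was -0.01, with 0 genes higher and 1 lower.

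Heat shock chaperones were called higher at 5 of 18 genes tested (27.8%, beside 12.3% of all genes) and lower at 0, with a median of 0.13. Hsp90aa1, the inducible form of HSP90, was at 9.37, 9.95, 9.49 and 10.51 with water. With corn oil it ran from 9.92 over a median of 10.89 to 11.83, a difference of 1.10 ± 0.25 (SE; limma adjusted p = 0.00187). Hspa4l, Dnaja1 and Chordc1, cytosolic chaperones or co-chaperones, and Hspd1, a mitochondrial chaperonin, differed by 1.21, 1.01, 0.77 and 0.70. The chaperones most strongly induced by stress did not separate the groups: Hspa1a was at 10.27, 11.10, 6.54 and 6.75 in the water controls and between 6.70 and 11.25 in the corn oil controls. Hspe1, the partner of Hspd1, differed by 0.01 with an interval of -0.25 to 0.28. Without water control 2-127 the count was 1, and without 2-121 it was 2.

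The heat shock element, searched as GAANNTTCNNGAA or its reverse complement TTCNNGAANNTTC on both strands, was present in 198 of the 32851 RefSeq promoter windows of 300 bases (0.603%; build GRCm38.p6, 250 bases before to 50 after the start). Of 15 list members with a window, 3 held it, and 1 of these, Chordc1, was among the 4 called members with a window. Chordc1 is shown beside Hspe1, which holds the element and was not called, with the bases of the matches in capitals.
Chordc1 (chr9:18292243-18292285, plus strand, 3 overlapping matches from base -4 to base 19 relative to the start): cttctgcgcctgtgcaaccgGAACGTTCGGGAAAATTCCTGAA
Hspe1 (chr1:55088039-55088096, plus strand, 2 overlapping matches, the first at -89 relative to the start): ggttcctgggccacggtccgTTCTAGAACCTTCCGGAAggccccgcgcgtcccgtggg
A match describes the letters of a window and shows no binding of a factor.

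Interferon response genes were higher at 5 of 24 genes tested (20.8%, beside 12.3% of all genes) and lower at 0, with a median of 0.12. They were Ifit1 and Ifit2, which bind viral RNA, Ifih1, the RNA sensor MDA5, and the GTPases Gbp3 and Iigp1. Ifit2 was at 5.11, 4.93, 5.62 and 5.80 in the water controls and from 5.50 over a median of 6.28 to 7.43 in the corn oil controls, a difference of 1.01 ± 0.25 (SE; limma adjusted p = 0.00272). Ifit1 was at 5.71, 6.21, 6.22 and 6.67 with water and from 6.54 to 8.49 with corn oil. In both genes the groups overlapped at the lowest corn oil animals. Iigp1 had the largest difference, 1.49 ± 0.39 (SE), and 1 water control reached 7.11. The other members of the family did not move as a block, since Ifit3 differed by 0.20 (interval -0.19 to 0.58), Mx1 by -0.12, Irf7 by -0.14 and Usp18 by -0.23, and none of these was called. The count of 5 fell to 2 without water control 2-124, and 0 of the 24 genes were called among the treated groups.

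The interferon-stimulated response element, searched as GAAANNGAAA or TTTCNNTTTC on both strands, was found in 1131 of the 32851 windows (3.44%) and in 13 of the 18 list members with a window. Among the 4 called members with a window, 3 held it. Ifit1 and Gbp3, which were called, are shown beside Ifit3, which was not, with the matches in capitals.
Ifit1 (chr19:34640765-34640833, plus strand, first match at -104): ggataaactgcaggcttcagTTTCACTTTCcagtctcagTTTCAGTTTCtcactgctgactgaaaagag
Gbp3 (chr3:142559979-142560034, plus strand, 2 overlapping matches, the first at -45): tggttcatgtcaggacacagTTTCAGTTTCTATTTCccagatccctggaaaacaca
Ifit3 (chr19:34583353-34583436, plus strand, first match at -156): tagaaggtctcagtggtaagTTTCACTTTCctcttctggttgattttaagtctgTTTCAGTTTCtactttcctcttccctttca
The element was thus printed in the windows of called and uncalled members alike.

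Of 17 tested p53 target genes, 5 were higher with corn oil (29.4%, beside 12.3% of all genes) and 2 lower (11.8%, beside 10.6%). Ccng1, cyclin G1, a classic p53 target, was at 7.32, 6.98, 7.37 and 8.48 in the water controls. In the corn oil controls it ran from 7.80 over a median of 8.55 to 9.44, a difference of 1.12 ± 0.22 (SE; limma adjusted p = 0.000389). Pmaip1 (NOXA, which promotes apoptosis), Trp53inp1, Mdm2 (the ligase that degrades p53) and Fas differed by 0.86, 0.73, 0.48 and 0.45. Phlda3 and Tnfrsf10b were lower, each by -0.38, and Cdkn1a, the cell cycle inhibitor p21, was not called (-0.21). The direction of the list was thus mixed, and its median was -0.13. The 5 higher calls were 3 without water control 2-121 or 2-124. Of the 18 cell cycle and proliferation genes, 0 were called, with a median of 0.01, and Mki67 differed by 0.45 without passing the test.

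The markers that define the main cells of the lung were present at high signal in every array. Sftpc, the surfactant protein of type II cells, averaged 14.34 ± 0.04 (SD, n = 8) with corn oil and 14.35 ± 0.02 (SD, n = 4) with water. Ager, of type I cells, averaged 14.19 and 14.22, Scgb1a1, of club cells, 14.28 and 14.19, and Pecam1, of endothelium, 11.12 and 11.26. Sftpc, Ager and Scgb1a1 lie near the highest value of the series (14.53), where a difference has little room to show, so these levels check the tissue and not its cell content. Among type II cell markers 1 of 13 was called lower (7.69%, beside 10.6% of all genes), which was Lpcat1 (-0.24). Among club cell markers 0 of 14 were called, and among ciliated cell markers 0 of 18 (median -0.16). The type II count was 0 without any 1 of 2-121, 2-124, 2-127, 2-60, 2-95, 2-97 or 2-99. Type I cell markers were higher at 4 of 13 genes (30.8%, beside 12.3% of all genes) and lower at 0. These were Akap5, an anchoring protein of kinase A, Lmo7, Clic5 and Vegfa, at 0.98, 0.67, 0.57 and 0.38, while Ager, Aqp5 and Hopx differed by -0.03, -0.11 and 0.01. The type I count was 4 or 5 whichever of the 12 animals was left out. In whole lung, fewer cells of a type and less RNA per cell cannot be told apart.

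Endothelial markers were higher at 4 of 20 genes (20.0%, beside 12.3% of all genes) and lower at 1 (5.0%, beside 10.6%). Ednrb, an endothelin receptor of the aerocyte type of capillary cell, was at 9.00, 8.38, 8.58 and 8.94 in the water controls and from 9.18 to 9.92 in the corn oil controls, so that the groups did not overlap (0.77 ± 0.13, SE). Calcrl, Emcn and Tek were higher by 0.79, 0.54 and 0.41 and Esam was lower by -0.22, whereas Cdh5, Kdr and Pecam1 were not called (0.02, 0.09 and -0.13). The count of 4 fell to 1 without water control 2-124 and to 2 without corn oil control 2-99. Fibroblast and mural cell markers were higher at 1 of 16 genes (6.25%, beside 12.3% of all genes), Npnt at 0.42. They were lower at 3 (18.75%, beside 10.6%): Cnn1, Cspg4 and Des, at -0.71, -0.39 and -0.37. The 3 lower calls fell to 0 without any 1 of 2-121, 2-124, 2-127, 2-60 or 2-99, to 1 without 2-134 or 2-95 and to 2 without 2-59. Postn, a matrix protein of fibroblasts, was the 1 matrix gene of 24 called (4.17%, beside 12.3% of all genes called higher). It differed by 1.53 ± 0.32 (SE), and water control 2-129, at 8.77, lay within the corn oil range of 7.70 to 10.26. Without any 1 of 2-129, 2-132 or 2-93, 4 matrix genes were called lower, and without 2-97, 1.

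The counts of called genes in the immune cell lists were close to the background or below it. Beside 12.3% of all genes called higher, alveolar macrophage markers were higher at 2 of 14 (14.3%), Mrc1, the mannose receptor, at 0.94, and Lpl. T and NK cell markers were higher at 1 of 19 (5.26%), Il7r at 0.78. Without water control 2-121 or 2-124 both counts were 0, as was the T and NK cell count without corn oil control 2-99. Neutrophil genes (14 tested), monocyte and interstitial macrophage markers (12), erythroid genes (10) and platelet genes (9) had 0 calls. The neutrophil calprotectin gene S100a9 was at 10.99, 8.02, 10.34 and 10.86 in the water controls and from 8.68 to 12.64 in the corn oil controls, so its difference of 1.06 had an interval of -0.15 to 2.26. Among 16 inflammatory cytokines and chemokines 1 was called, as higher (6.25%, beside 12.3% of all genes). This was Ptgs2, the inducible cyclooxygenase, at 5.05, 4.44, 5.82 and 5.28 with water and from 5.23 to 8.16 with corn oil (1.46 ± 0.37, SE). The 4 corn oil controls 2-93 to 2-99 had the highest Ptgs2 values, and 2-132 and 2-134 lay within the water range. Without water control 2-124, Ptgs2 was not called.

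Genes of neighbouring tissues varied widely between animals of the same group. The 17 cardiac muscle genes had 0 calls and a median difference of -0.60, and their mean level ran from 7.43 to 8.56 in the water controls and from 6.65 to 8.38 in the corn oil controls. Of the adipocyte markers described with the synthesis genes, Adipoq, adiponectin, was at 8.57, 8.95, 8.42 and 4.52 in the water controls and between 3.10 and 9.00 in the corn oil controls. Hepatocyte genes had 0 calls of 12 and a median of 0.22, with mean levels from 5.05 to 7.45 in the corn oil controls. Their part in the differences of other genes was not tested.

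Genes whose levels follow the time of day or stress hormones were variable within both groups and mostly not called. Among clock genes in phase with Dbp 0 of 13 were called, and Dbp itself was at 6.77, 6.57, 8.71 and 8.89 in the water controls and between 5.13 and 8.94 in the corn oil controls. Of 6 genes of the opposite phase, Clock and Nampt were higher (33.3%, beside 12.3% of all genes), by 0.57 and 0.71, while Arntl differed by 0.06. Without water control 2-124 neither was called, and without any 1 of 2-121, 2-127 or 2-99 the list held 1 higher call. Glucocorticoid-induced genes had 0 calls of 21, and Fkbp5 ran from 7.47 to 10.19 in the water controls alone. The NRF2 and glutathione genes had 0 higher and 2 lower of 26 (7.69%, beside 10.6% of all genes). The 2 were Cbr1 and Cbr3, carbonyl reductases, at -0.26 and -0.39. Without any 1 of 2-121, 2-124, 2-127 or 2-99 neither was called, and without any 1 of 2-134, 2-59, 2-60, 2-93 or 2-95 the list held 1 lower call. Among the treated groups 3 genes of this list were called higher (Cbr3, Ces1g and Ephx1, list median 0.19), beside 0.466% of all genes. AhR targets had 1 higher (Tiparp, 0.64) and 1 lower (Aldh3a1, -0.51) of 6, each 16.7%, beside 12.3% and 10.6% of all genes. Without water control 2-124 they had 0 of either. Of 17 genes of ER stress and the amino acid response, Dnajb9 was higher (0.59) and Pdia4, Sdf2l1 and Asns were lower (-0.44, -0.64 and -0.30). These were 5.88% higher and 17.6% lower, beside 12.3% and 10.6% of all genes. The 3 lower calls fell to 0 without water control 2-124 and became 5 without corn oil control 2-132.

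Ribosomal protein genes were higher at 3 of 12 tested (25.0%, beside 12.3% of all genes): Rpl4 at 0.30, Rpl7 at 0.29 and Rps24 at 0.12. Without water control 2-124, 1 gene of the list was called. Of 19 respiratory chain genes Cycs, cytochrome c, was higher (0.28), and Atp5a1, Sdhb and Ndufa4, subunits of the respiratory complexes, were lower (-0.19, -0.20 and -0.23). These were 5.26% higher and 15.8% lower, beside 12.3% and 10.6% of all genes. The 3 lower calls were 0 without any 1 of 2-124, 2-95 or 2-99 and 8 without 2-129 or 2-132, so this count was set by single animals.

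**Figure D4:**
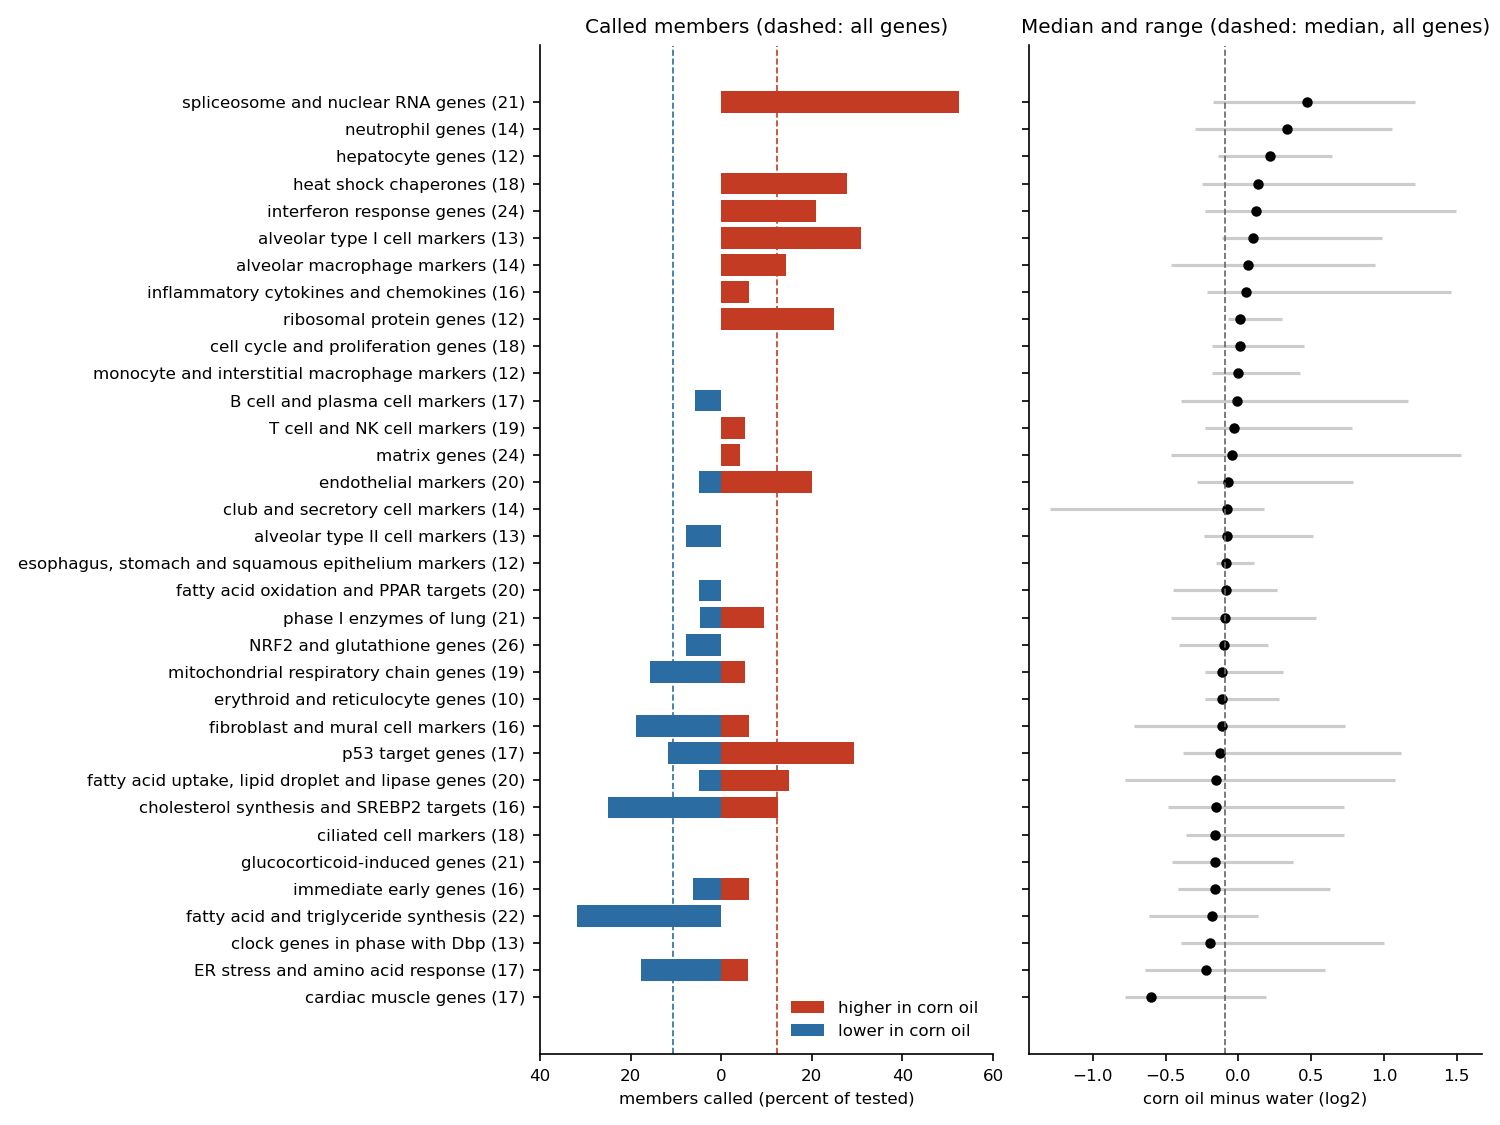
Left, the percentage of tested members called higher (right of 0) or lower (left of 0) with corn oil in each gene list of 10 or more tested members, with the number tested in brackets and dashed lines at 12.3% and 10.6%, the values over all genes. Right, the median (point) and the range (line) of the members' log2 differences, with a dashed line at the median of all genes, -0.09: spliceosome and nuclear RNA genes have the highest median (0.47) and cardiac muscle genes the lowest (-0.60).

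The vehicle difference was also examined in animals that the control comparison did not use. The mean of the benzene, coumarin and 1,2-dibromoethane groups, given in corn oil, was set against the mean of the N-methylolacrylamide and 2-chloromethylpyridine hydrochloride groups, given in water. Chemical and vehicle cannot be told apart in this contrast. It called 110 genes (0.754%), 68 higher (0.466%) and 42 lower (0.288%) with corn oil, with 2352 at an unadjusted p under 0.05. Leaving out 1 chemical at a time moved the count from 3 genes (without coumarin) to 372 (without 1,2-dibromoethane), and without 2-chloromethylpyridine hydrochloride it was 4. With the 3' minus 5' difference as a covariate it was 23, and 1 array of the 1,2-dibromoethane group, with the highest such difference of the treated arrays (0.989), left 93 genes when it was set aside.

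Of the 110 genes called among the treated groups 36 (32.7%) were also called in the controls, where 22.9% of all genes were called, and 31 of these differed in the same direction, which is 0.928% of the control calls and 28.2% of the treated calls. Ccng1 differed by 1.12 in the controls and by 0.65 ± 0.16 (SE) in the treated groups. Pigr, the receptor that carries IgA across epithelium, differed by 0.61 and 0.69, and Slc16a12, a creatine transporter, by 0.58 and 0.61. Carnmt1, Kbtbd7, Lmo7 and Lypla1 were higher in both as well. Ces1d, a carboxylesterase that hydrolyses triglycerides, was at 11.85, 11.68, 11.54 and 11.89 in the water controls and from 11.85 to 12.30 in the corn oil controls, and differed by 0.27 and 0.31. Among the treated groups its mean was highest with coumarin (12.47), then 12.07 with benzene and 11.95 with 1,2-dibromoethane, beside 11.89 and 11.82 in the groups given water. Sqstm1, the autophagy receptor p62, was lower in both (-0.29 and -0.19). Its water values of 11.84, 12.01, 11.92 and 11.86 lay above all corn oil values, which ran from 11.51 to 11.78. Ndufa4l2, a mitochondrial protein induced in hypoxia, was lower by -0.43 and -0.55.

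Another 5 genes were called in both comparisons in opposite directions: Cbr3, Dglucy, Lrrc26, Mgat3 and Slc46a3 were lower with corn oil in the controls and higher among the treated groups. The difference between the comparisons was called by limma for 93 genes in all (0.637%), 80 of them also called in the controls. All 5 were among the 93. They were chosen for opposite calls on the same arrays, which all but fixes that outcome, so it is no further support. Of other genes called in the controls, the 5 interferon genes differed by 0.02 to 0.36 among the treated groups, Srebf1 by 0.02, Cd36 by -0.11 and Tra2a by 0.29, and none of these passed the test there. Of the 17 p53 target genes 2 were called higher among the treated groups, and of the 13 type I cell markers 1, beside 0.466% of all genes.

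**Figure D5:**
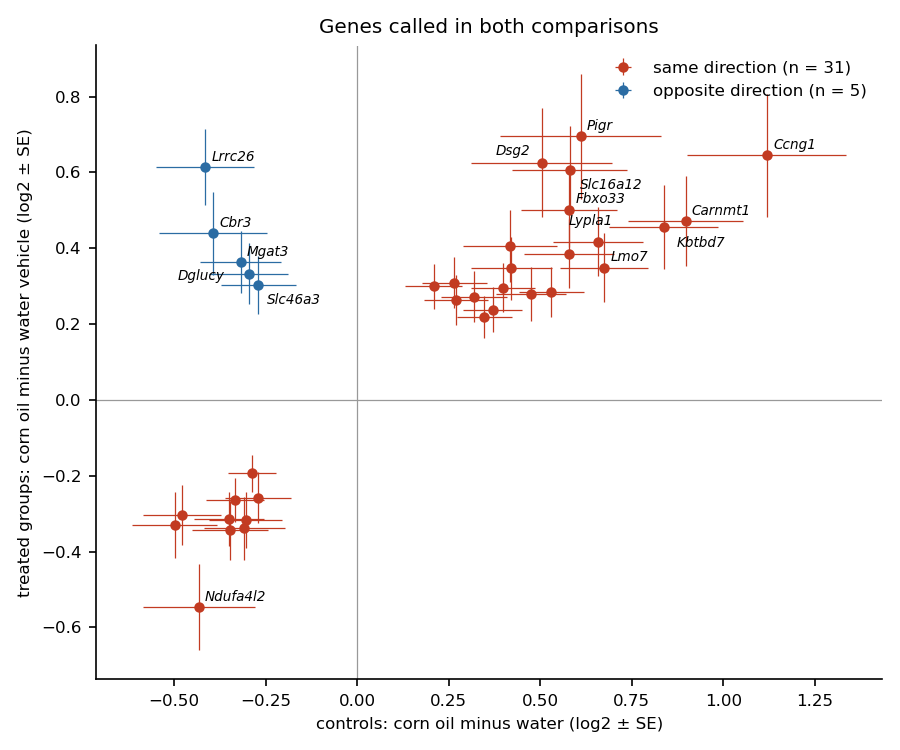
Difference between corn oil and water vehicle (log2 ± SE) in the controls (horizontal axis) and among the treated groups (vertical axis) for the 36 genes called in both. The 31 genes of the same direction lie at the lower left and upper right, with Ccng1 farthest to the right, and the 5 genes of opposite direction at the upper left.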

How the data were processed

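Lung RNA of 70 animals was measured on 1 Affymetrix array each, and the 8 corn oil and 4 water gavage controls of set 2 were compared. The authors deposited log2 signals per probe set, between 2.47 and 14.53, already on a common scale (array medians 5.41 to 5.52). The summarization and normalization are not given in the sources used here. Samples were grouped by the vehicle code and animal identifier in the labels. No labels tie animals to a cage or a day.

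Of 45101 probe sets, 34945 carried 1 gene symbol, 932 several and 9160 none, and 64 controls were left out. Each gene was represented by its probe set of highest mean, and genes under the 30th percentile of mean signal (4.25) were left out, leaving 14593 of 18193. 1 limma 3.58.1 model (R 4.3.3) was fitted to all 70 arrays in 18 groups (52 residual degrees of freedom), with Benjamini-Hochberg adjustment over all genes and a threshold of 0.05. RNA readings were compared by exact two-sided permutation tests. The fit was tested on simulated data, with independent noise of equal spread in every group and no runs among the corn oil controls. That test therefore cannot show how such runs affect the calls. Array number, not depth, limits the precision. Named genes were up to 15 called, non-overlapping genes of largest difference in each direction, up to 4 called members per list by smallest p, the first measured members of each list and genes called in both comparisons. Other list members are named to account for a list. The groups, gene lists and tests were chosen with earlier results of these data known. Alternatives covered the filter, probe set choice, normalization, array weights, RNA covariates and each animal left out. Promoter windows came from RefSeq (GRCm38.p6).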

Additional observations from a re-analysis of the deposited data

Results flagged for a closer look

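Among 66 groups of 4 to 10 samples checked, 5 had 1 sample with an unusually wide gap to the rest, where chance alone gives about 1 in 20. Water control 2-124 was far below the other water controls for Slco4c1, an organic anion transporter (4.16), for Ythdf3, a reader of methylated RNA (5.53), and for Vamp7, a vesicle fusion protein (5.75). Water control 2-127 was set apart for Kif6 (6.40). Corn oil control 2-99 had the highest 3' minus 5' difference of its group (0.339). In Slco4c1, Ythdf3 and Vamp7 the low water value adds to the difference from corn oil, and 2-124 is also the animal whose omission removes the most calls.

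By limma's test of the difference itself, the vehicle difference was not the same in the controls as among the treated groups for 93 genes. Genes named above were among them, such as Nrp1 (1.17 in controls and 0.23 in treated groups), Ednrb (0.77 and -0.20) and Acss2 (-0.35 and 0.28). The 5 genes flagged here are those called in both comparisons in opposite directions, a choice that all but fixes the outcome of this test. The difference in the controls minus that among the treated groups was -1.03 for Lrrc26 (adjusted p = 0.000729) and -0.83 for Cbr3 (adjusted p = 0.0193). It was -0.68 for Mgat3 (adjusted p = 0.0122), -0.63 for Dglucy and -0.57 for Slc46a3 (adjusted p = 0.0193 for both). Vehicle and chemical cannot be told apart in the treated groups.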

How the results depend on the processing

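The count of 3340 genes stayed within 1.5 times under the other filters, probe set rules, normalizations and covariates run, and under array weights. The balance of directions was less stable. Lower calls outnumbered higher ones with averaged probe sets (1818 against 1536), quantile normalization (1836 against 1788) or equalized array medians (1931 against 1763). The same held with array weights (2625 against 2358) and the integrity number as covariate (1960 against 1842). Under the other filters and covariates higher calls were more numerous. The 12.3% and 10.6% set beside the gene lists are those of the main fit. The count was 0 with the 12 arrays alone, 5849 with corn oil controls 2-93 to 2-99 only and 1 with 2-132 and 2-134 only. Leaving out each replicate gave 1032 to 5087 genes. Derl3 and Tnni2 changed sign with 2-132 and 2-134 only (0.0048 and 0.034, not called). Of 3554 values of single named genes under the alternatives, 2894 kept direction and side of the threshold and 658 lost their call. The treated count of 110 was 54 with the mean over probe sets, 3405 with array weights, 362 without benzene, 3 without coumarin, 372 without 1,2-dibromoethane, 246 without N-methylolacrylamide and 4 without 2-chloromethylpyridine hydrochloride. With the 3' minus 5' difference as a covariate, chosen after seeing the data, it was 23. The 2486 genes that differed among the corn oil runs were 1483 with a filter at the 50th percentile and 922 to 3364 with each replicate left out. The first component difference of 37.1 ran from 30.4 to 44.5 with each replicate left out, and that of the 3' minus 5' difference from 0.0830 to 0.116. The cause of these shifts was not tested, except that omitting arrays or genes leaves fewer to test. No paired analysis was possible because the groups share no replicate numbers.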
